A study of Mus musculus with 6 samples.

Results

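This account covers 10 genes of the cells that wrap blood vessels, vascular smooth muscle cells and pericytes, in mouse hearts that lack Ybx1 in cardiomyocytes. The genes were taken by symbol from the deposited expression table, namely Acta2, Myh11, Tagln, Smtn, Cnn1, Mylk, Myl9, Rgs5, Pdgfrb and Notch3. All 10 were among the 78409 genes of the table and among the 13717 genes with enough reads to be tested. The hearts came from mice aged 11 months, 3 with the label Ybx1cmKO, in which Ybx1 was deleted in cardiomyocytes, and 3 littermates labelled Control. Not given in the sources used here are the promoter that drove the deletion and the alleles of the controls. The deletion was aimed at cardiomyocytes, while the members were chosen as genes of vessel wall cells. Which cells of the heart their reads came from was not tested.

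Smooth muscle cells of arteries contract when calcium and calmodulin activate a kinase that phosphorylates the regulatory light chain of myosin, which then pulls on a smooth muscle form of actin. Their contractile genes are controlled by serum response factor (SRF), which binds a short sequence called the CArG box, and by its coactivator myocardin. Pericytes sit on capillaries, depend on platelet-derived growth factor (PDGF) from the endothelium, and share with smooth muscle cells a Notch receptor and an inhibitor of G protein signalling.

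Libraries held a total of 12270796 to 15141525 counts, and the members had between 21 and 7016 counts in a single library. Ybx1 itself was at 851, 813 and 898 normalised CPM (read counts relative to the library total) in controls 1, 2 and 3 and at 203, 172 and 110 in knockouts 1, 2 and 3, in keeping with the labels. Its log2 fold change of -2.40 (SE 0.27) had an edgeR adjusted p of 0.148, so even a fall to 18.9% of the control mean was not called with 3 hearts a group. CPM here are scaled between libraries by edgeR's TMM factors. Knockout heart 3 stood apart in composition, with mitochondrial rRNA at 10.7% of counts against 20.5% to 26.3% in the other 5. Malat1, a nuclear RNA, was at 668 deposited CPM in it and at 3317 to 7923 elsewhere, and values without this heart are given beside the results that it moved most. Xist, the RNA of the inactive X chromosome, had 4744.5 counts in control heart 1 and 3041 in knockout heart 3 but at most 37.5 in the other 4, so each group held 1 such heart. Of the cardiomyocyte markers all 10 were tested, and their summed level was 29885 to 35516 CPM in the controls against 24968 to 33185 in the knockouts. The defining markers of heart muscle were thus present. In log2 fold change 5 of them lay above and 5 below 0, and none was called. All knockout hearts were below all controls in 3, Myh6 (-0.64), Ttn (-0.83) and Ryr2 (-0.26), and in 5.82% of all tested genes. All 5 airway and lung markers had 0 counts in every library.

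None of the 10 members was called in the comparison of knockout with control hearts by edgeR's quasi-likelihood test, with a Benjamini-Hochberg adjusted p below 0.05 over all tested genes as the call. That test called 0% of all 13717 genes, while DESeq2 called 15 genes, none of them a member. The log2 fold change was below 0 in 9 of the 10 members, where 48.9% of all tested genes lay below 0. The median of the members was -0.27 and that of all genes 0.01. The members' median was -0.10 without knockout heart 3 and -0.49 without knockout heart 1, so its size rested on these single hearts. In bulk RNA, fewer vessel wall cells and less of these transcripts per cell cannot be told apart.

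**Figure D1:**
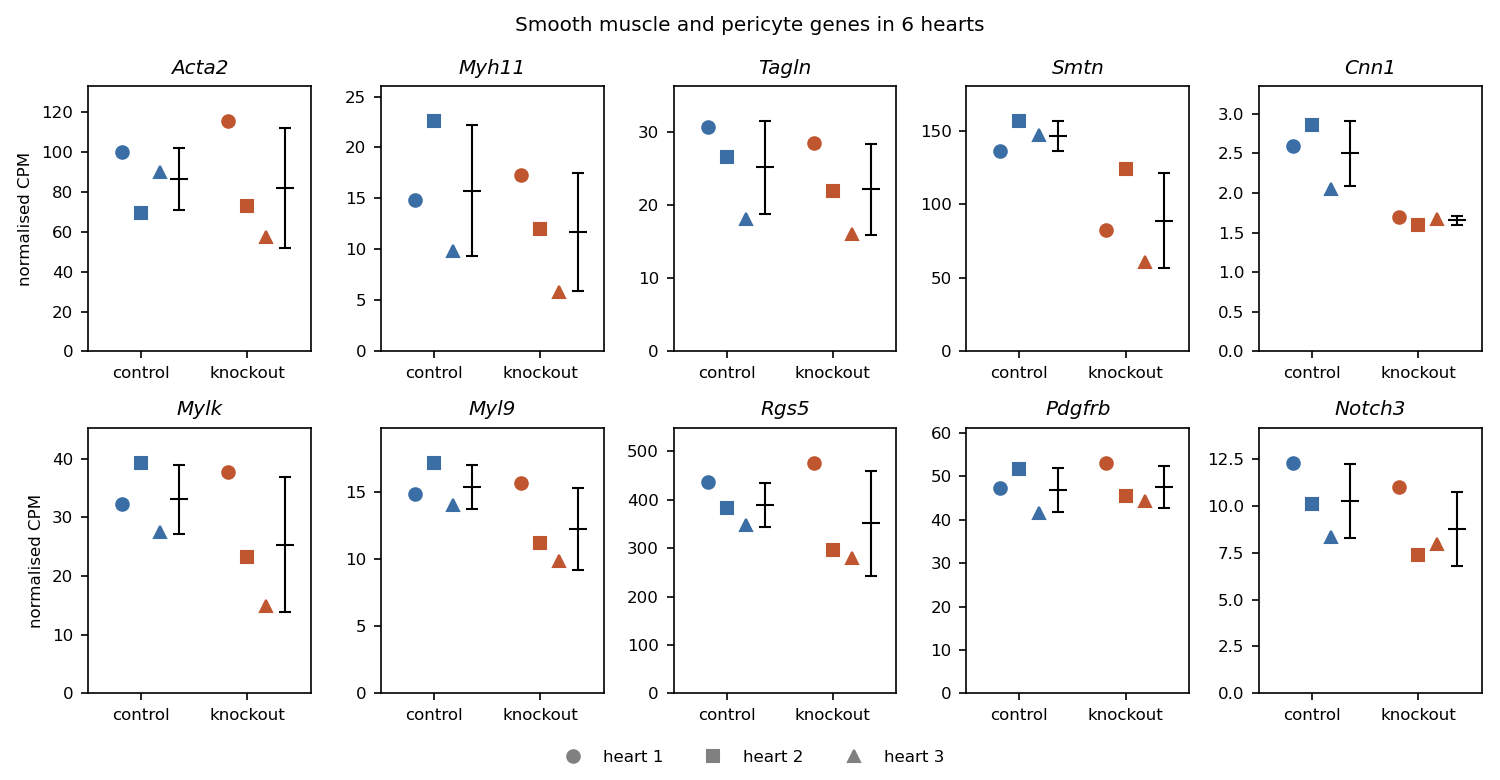
Level of each member in normalised CPM (vertical axes, each from 0) in the 3 control and 3 knockout hearts, with 1 point per heart, its symbol giving the heart number, and the mean with its SD in black. In Smtn and Cnn1 the 3 knockout hearts lie below the 3 control hearts, and in the other 8 members the groups overlap.

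Smtn (ENSMUSG00000020439), which encodes smoothelin, an actin-binding protein of contractile smooth muscle, had the smallest p of the members. It was at 136, 157 and 147 CPM in controls 1, 2 and 3 and at 82.3, 124 and 60.6 CPM in knockouts 1, 2 and 3. Every knockout heart was lower than every control heart, and the knockout hearts were the more spread out. The means were 147 ± 10.2 CPM in the controls against 89.0 ± 32.2 CPM in the knockouts (SD, n = 3 each), which puts the knockouts at 60.6% of the controls. Smtn differed by -0.72 on the log2 scale (SE 0.27, 95% confidence interval -1.33 to -0.12), with an edgeR unadjusted p of 0.0249 and an adjusted p of 0.694. It ranged from -0.51 without knockout heart 3 to -1.05 without knockout heart 2. An exact permutation test over hearts (two-sided) gave p = 0.1, the lowest value 3 against 3 hearts allow. Smtn was the only member with an edgeR unadjusted p below 0.05, where 2.45% of all tested genes had such a p and were lower in knockout, and 2.69% had one and were higher.

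Cnn1 (ENSMUSG00000001349), which encodes calponin 1, an inhibitor of the actin-activated myosin ATPase, was the other member without overlap. It was at 2.59, 2.86 and 2.06 CPM in controls 1, 2 and 3 and at 1.70, 1.59 and 1.67 CPM in knockouts 1, 2 and 3. These rested on 32, 31 and 31 counts in control and 25, 21 and 30 counts in the knockouts. Counting error alone gives a coefficient of variation of about 18.8% at such counts, more than the 3.29% seen among the knockout hearts, so the close agreement of these 3 values is finer than the depth can resolve. The log2 fold change was -0.59 (SE 0.27, interval -1.21 to 0.03; edgeR adjusted p = 0.694), and -0.72 to -0.50 with 1 heart left out. All knockout hearts lay below all control hearts in 2 of the 10 members, Smtn and Cnn1, and in 5.82% of all tested genes. No member had all knockout hearts above all controls, where 6.26% of tested genes did.

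For the myosin heavy chain, its light chain and the kinase of that chain the groups overlapped. Myh11 (ENSMUSG00000018830), the smooth muscle myosin heavy chain, was at 14.8, 22.6 and 9.88 CPM in controls 1, 2 and 3 and at 17.3, 11.98 and 5.78 CPM in knockouts 1, 2 and 3. It was the most variable member, with a coefficient of variation of 40.8% in control and 49.4% in the knockouts. Its log2 fold change of -0.43 (interval -1.37 to 0.51) became -0.09 without knockout heart 3, -0.09 without control heart 2, -0.68 without control heart 3 and -0.83 without knockout heart 1.

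Myl9 (ENSMUSG00000067818), the regulatory light chain of smooth muscle myosin, was steadier. It was at 14.9, 17.2 and 14.1 CPM in the controls and at 15.7, 11.2 and 9.84 CPM in knockouts 1, 2 and 3. Knockout hearts 2 and 3 were below all controls and knockout heart 1 was within their range. This gave a log2 fold change of -0.33 (interval -0.83 to 0.17; -0.55 without knockout heart 1 and -0.19 without knockout heart 3).

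Mylk (ENSMUSG00000022836), the calmodulin-dependent kinase that phosphorylates this light chain, was at 32.4, 39.4 and 27.5 CPM in the controls and at 37.7, 23.3 and 14.96 CPM in knockouts 1, 2 and 3. It had the same layout as Myl9, with knockout hearts 2 and 3 below every control and knockout heart 1 inside the control range. Its difference on the log2 scale, -0.39 (interval -1.12 to 0.35), was -0.11 without knockout heart 3, -0.79 without knockout heart 1 and -0.26 without control heart 2.

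Acta2 (ENSMUSG00000035783), the smooth muscle actin that activated fibroblasts also make, was at 100.1, 69.7 and 90.1 CPM in the controls and at 116, 72.8 and 57.6 CPM in knockouts 1, 2 and 3. The lowest and the highest value both came from knockout hearts. On the log2 scale the difference was -0.08 (interval -0.72 to 0.56), and it was 0.12 without knockout heart 3, 0.03 without control heart 1, -0.23 without control heart 2 and -0.41 without knockout heart 1. Its direction also turned with scaling by library size alone, to 0.06.

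Tagln (ENSMUSG00000032085), which encodes the actin-binding protein transgelin (SM22), was at 30.7, 26.6 and 18.2 CPM in the controls and at 28.5, 21.9 and 16.01 CPM in knockouts 1, 2 and 3. The ranges of the groups overlapped over most of their length. Tagln differed by -0.18 on the log2 scale (interval -0.80 to 0.44), 0.01 without knockout heart 3, -0.03 without control heart 1, -0.37 without control heart 3 and -0.41 without knockout heart 1.

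The median log2 fold change was -0.39 over the 7 contractile genes and -0.15 over the pericyte and signalling members Rgs5, Pdgfrb and Notch3. These medians became -0.11 and -0.01 without knockout heart 3, and -0.61 and -0.42 without knockout heart 1. For the contractile genes it was -0.25 without control heart 2, and for the other 3 members -0.07 without control heart 1, -0.22 without control heart 3 and -0.06 without knockout heart 2. Rgs5 (ENSMUSG00000026678), which ends G protein signals and is a standard pericyte marker, was at 437, 383 and 347 CPM in the controls and at 477, 297 and 280 CPM in knockouts 1, 2 and 3. With 3915 to 7016 counts per library its counting error was about 1.40%, against a coefficient of variation of 11.6% among control and 31.0% among knockout hearts. Its spread between hearts was thus far above the counting error. For Rgs5 the log2 fold change was -0.15 (interval -0.72 to 0.43; -0.01 without knockout heart 3, -0.07 without control heart 1, -0.06 without knockout heart 2 and -0.43 without knockout heart 1), and 0.02 with library size alone.

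Pdgfrb (ENSMUSG00000024620), the receptor for the PDGF that recruits pericytes to vessels, was at 47.3, 51.6 and 41.5 CPM in the controls and at 53.1, 45.4 and 44.3 CPM in knockouts 1, 2 and 3. Both groups covered nearly the same range, with SDs of 5.08 and 4.84 CPM. For Pdgfrb the log2 fold change was 0.02, and its 95% interval of -0.38 to 0.43 was the narrowest of the members. The sign turned without knockout heart 1 or control heart 3 (-0.06 each).

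Notch3 (ENSMUSG00000038146), the Notch receptor of arterial smooth muscle and pericytes, was at 12.3, 10.1 and 8.36 CPM in the controls and at 11.0, 7.36 and 7.95 CPM in knockouts 1, 2 and 3. Knockout hearts 2 and 3 lay just below the lowest control heart, and knockout heart 1 lay between controls. Notch3 differed by -0.22 on the log2 scale (interval -0.75 to 0.31; -0.08 without control heart 1, -0.13 without knockout heart 2, -0.35 without control heart 3 and -0.42 without knockout heart 1). For each of the 8 members other than Smtn and Cnn1, edgeR's adjusted p was 0.694 to 0.967.

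**Figure D2:**
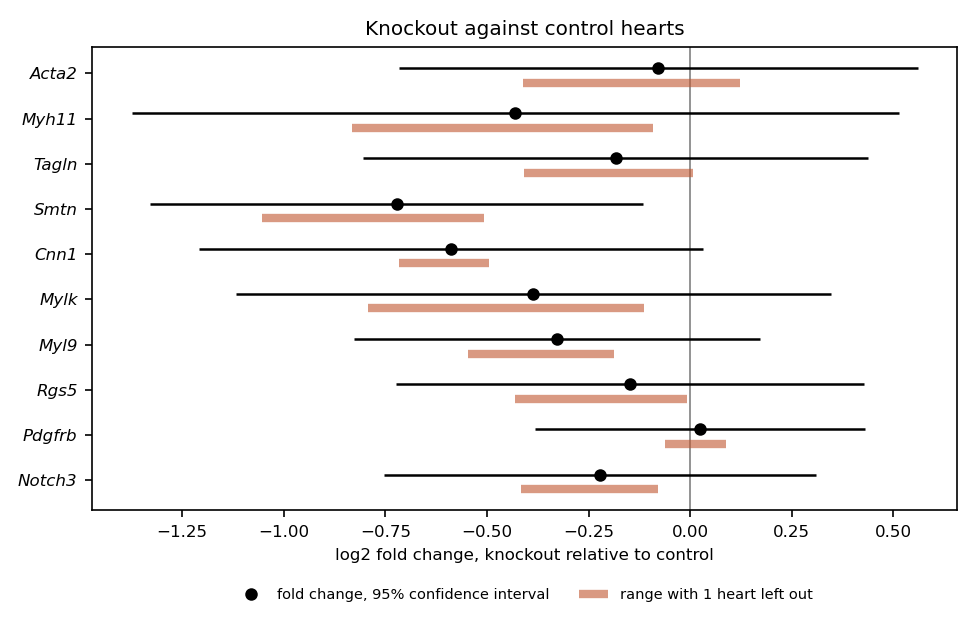
Log2 fold change of each member, knockout relative to control (horizontal axis), with its 95% confidence interval in black and the range over the 6 fits that leave out 1 heart in orange. The interval of Smtn alone ends below 0, and the left-out ranges of Acta2, Tagln and Pdgfrb cross 0.

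The precision of these comparisons was limited. For 6 of the 10 members the 95% interval lay within a 2-fold change either way. The intervals of Myh11, Smtn, Cnn1 and Mylk reached below a log2 change of -1. Smtn was the member whose interval left out 0.

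The same few hearts were lowest or highest in most members. Of the 10 members, 7 had their lowest level in knockout heart 3, 2 in knockout heart 2 and 1 in control heart 3. The highest level was in control heart 2 for 5 members, in knockout heart 1 for 3 and in control heart 1 for 2. Knockout heart 3 was below all 3 controls in 9 members, Pdgfrb being the exception. Knockout heart 2 was below all controls in 6 members, while knockout heart 1 was below them in 2 and above them in 3.

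Averaged over the 7 contractile genes (Acta2, Myh11, Tagln, Smtn, Cnn1, Mylk and Myl9), the deviation of each heart from the mean of the 6 was 0.27, 0.37 and -0.01 on the log2 scale in controls 1, 2 and 3. It was 0.18, -0.14 and -0.66 in knockouts 1, 2 and 3. Knockout heart 3 was therefore the low end for this group of genes, and knockout heart 1 lay among the controls. For Rgs5, Pdgfrb and Notch3 together the same deviation was 0.22, 0.11 and -0.13 in control and 0.27, -0.23 and -0.23 in the knockouts. Here knockout hearts 2 and 3 were alike, and knockout heart 1 was the highest of all.

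Smtn did not follow the other contractile genes in knockout heart 1. There Acta2, Myh11, Tagln, Mylk and Myl9 were 0.21 to 0.50 above their own means on the log2 scale, while Smtn was at -0.44 and Cnn1 at -0.24. Smtn was therefore low both in a heart where most contractile genes were high and in knockout heart 3, where they were low.

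**Figure D3:**
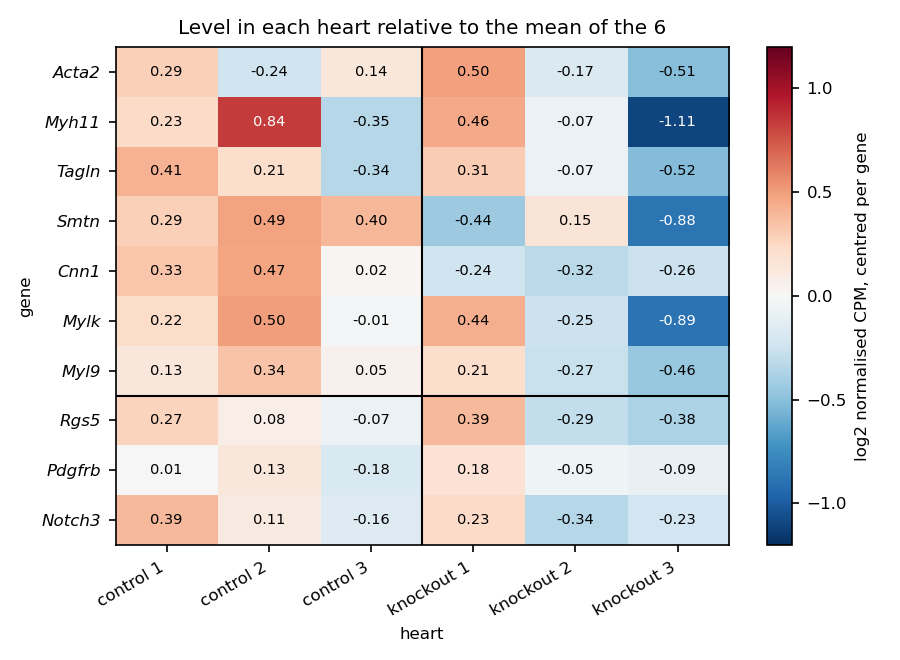
Level of each member (rows) in each heart (columns) as log2 normalised CPM minus the mean of the gene over the 6 hearts, red above and blue below the mean, contractile genes above the horizontal line. The column of knockout heart 3 is below 0 throughout, from -0.09 in Pdgfrb to -1.11 in Myh11, and Smtn is the only contractile gene besides Cnn1 below 0 in knockout heart 1.

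Markers of other cells varied by heart as well. The summed level of 10 endothelial markers was 1583, 1305 and 1157 CPM in the controls against 1919, 908 and 1585 CPM in knockouts 1, 2 and 3. Most of this sum was Fabp4, a fatty acid carrier, at 569 to 1349 CPM. Without Fabp4, an alternative chosen after seeing the data, the other 9 markers summed to 456, 446 and 359 CPM in the controls and to 570, 339 and 286 CPM in knockouts 1, 2 and 3. Knockout heart 1 was highest in both sums, whereas the lowest was knockout heart 2 with Fabp4 and knockout heart 3 without it. The 5 atrial markers summed to 124, 213 and 385 CPM in the controls against 94.5, 309 and 290 CPM in the knockouts. Knockout heart 1 was lowest, and Bmp10 had 14 counts at most in a library. In this sum Nppa was at 116, 156 and 175 CPM in the controls and at 91.8, 258 and 106 CPM in the knockouts. Myl4, Myl7 and Sln instead rose with heart number in both groups. Myl4 was at 4.45, 27.0 and 96.6 CPM in the controls against 1.56, 27.8 and 92.5 CPM in the knockouts. Myl7 was at 2.91, 21.6 and 74.4 against 0.612, 14.3 and 46.7 CPM, and Sln at 0.647, 8.13 and 38.7 against 0.272, 8.34 and 44.6 CPM. Of the 11 fibroblast markers, 10 had a log2 fold change above 0 (median 0.32), which became 7 without knockout heart 3 (median 0.12) and 8 without control heart 2 (median 0.20), and the median was 0.21 without knockout heart 1. They summed to 1509 to 1879 CPM in the controls against 1819 to 2417 CPM in the knockouts. Gsn made up most of that sum except in knockout heart 1, where it was at 944 CPM and the other markers at 1027 CPM. Without Gsn, again chosen after seeing the data, the range was 697 to 821 CPM in the controls. It was 827 to 1027 CPM in the knockouts, highest in knockout heart 1. The 6 myofibroblast markers, 5 of them tested, summed to 57.7 to 65.5 and 57.2 to 83.6 CPM, and 6 macrophage markers to 76.0 to 103 and 102 to 153 CPM. All 6 macrophage markers had a log2 fold change above 0 (median 0.41, and 0.24 without knockout heart 3), and none was called. Epicardial markers reached 6.39 CPM and adipocyte markers 3.50 CPM in sum. The part of these cells in the members' differences was not tested.

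Protein-coding genes with the nearest pattern were also looked up. Nearness was measured as the root mean square difference between centred log2 profiles over the 6 hearts, so that 0 is an identical profile. For the mean profile of the contractile genes the 6 nearest were Ezh2, Rapgef5, Ddx17, Rbm12b2, Ttc28 and Cdk14, at distances of 0.06 to 0.07, where the median over all genes was 0.43. Ezh2 encodes a histone methyltransferase and Ddx17 an RNA helicase. Ddx17 was at 103, 125 and 93.7 CPM in the controls against 105, 87.2 and 57.3 CPM in knockouts 1, 2 and 3, with its lowest value in knockout heart 3 like most members. The contractile members were themselves 0.12 (Myl9) to 0.34 (Smtn) away from their mean, and 173 other genes, 1.26% of those tested, were nearer than Myl9.

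For the mean profile of Rgs5, Pdgfrb and Notch3 the nearest 6 were Klf4, Pds5b, Klhl4, Marcks, Ccdc102a and Zkscan8, at 0.03 to 0.06, with a median of 0.36 over all genes. Klf4 encodes a transcription factor that represses contractile genes in smooth muscle. It was at 78.1, 72.8 and 61.0 CPM in the controls against 76.8, 58.7 and 56.3 CPM in the knockouts, in the same order of hearts as Rgs5 except that control heart 1 exceeded knockout heart 1. The members were 0.08 (Notch3) to 0.13 (Pdgfrb) from their mean, and 34 other genes were nearer than Notch3.

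The other smooth muscle genes of a further list lay on both sides of 0. Of 14 tested genes out of 18, 8 lay above and 6 below 0, with a median log2 fold change of 0.04 where all tested genes had 0.01, and none was called. This split moved with single hearts, to 5 above and 9 below without knockout heart 1 (median -0.24), to 4 and 10 without control heart 3 (-0.08), and to a median of -0.01 without control heart 2 and 0.14 without knockout heart 2. Ramp1, a partner protein of the CGRP receptor, was at 4.74 ± 1.14 CPM in the controls against 7.25 ± 1.57 CPM in the knockouts (a log2 difference of 0.61, and 0.41 without knockout heart 3). Pdlim7, a scaffold of actin filaments, was at 10.1 ± 1.21 and 7.43 ± 1.17 CPM (-0.45), with all knockout hearts below all controls. Ppp1r14a, which encodes the phosphatase inhibitor CPI-17, was at 2.96 ± 0.334 and 4.15 ± 1.38 CPM (0.49, and 0.21 without knockout heart 3). The smooth muscle actin Actg2 stayed below the level needed for a test, with 5 to 15 counts per library.

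Other pericyte genes lay on both sides of 0. All 15 were tested, 6 above and 9 below 0, with a median of -0.05 and no call. Without knockout heart 1 it was 4 above and 11 below (median -0.17), and without knockout heart 2 it was 8 and 7. Rgs4, a relative of Rgs5, was at 14.1 ± 2.72 CPM in the controls against 10.7 ± 1.43 CPM in the knockouts (a log2 difference of -0.39, and -0.24 without control heart 2). Vtn, vitronectin, was at 10.8 ± 1.48 and 8.70 ± 1.19 CPM (-0.32, and -0.21 without control heart 1). The summed level of the list was 174 to 205 CPM in the controls against 168 to 203 CPM in the knockouts.

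**Figure D4:**
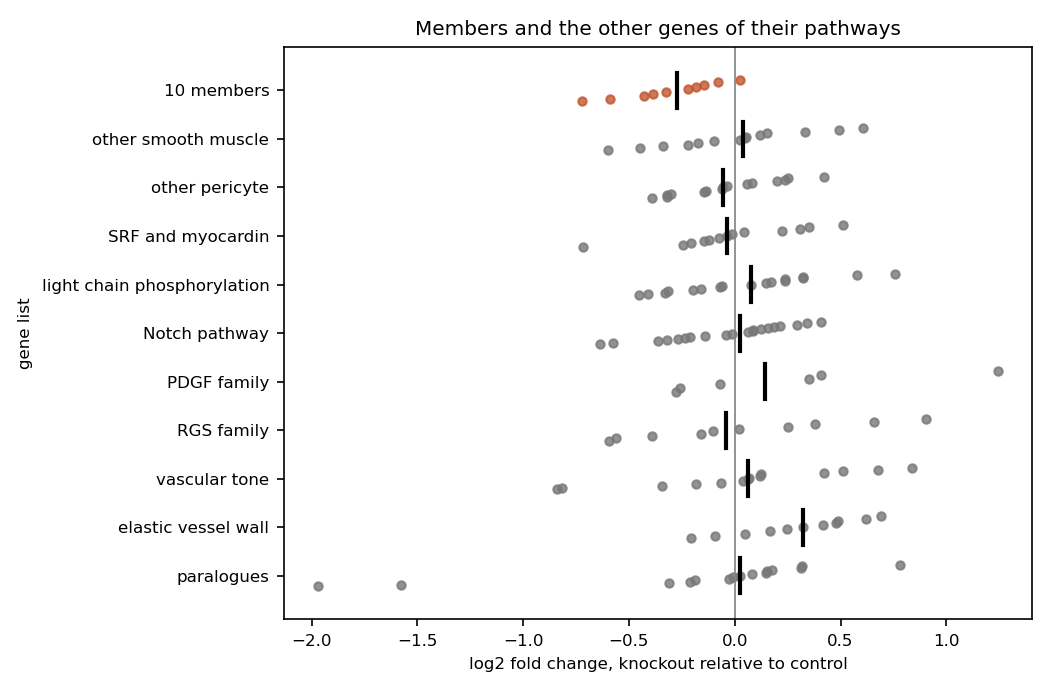
Log2 fold change, knockout relative to control (horizontal axis), of every tested gene in the members and in 10 lists of related genes (vertical axis), 1 point per gene and a black bar at each median. The members' median is -0.27, and the medians of the other lists run from -0.05 to 0.32.

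Among regulators of contractile genes, myocardin was lower on average but not in every heart. Myocd was at 73.6, 41.1 and 36.9 CPM in the controls against 32.6, 38.1 and 21.7 CPM in knockouts 1, 2 and 3, so that knockout heart 2 fell within the control range. The log2 fold change was -0.72 (SE 0.31, interval -1.43 to -0.004; edgeR unadjusted p = 0.0489, adjusted p = 0.694), and it was -0.35 without control heart 1. Cardiomyocytes express Myocd too, and its cell of origin cannot be told apart here. Of the 13 genes of the SRF and myocardin list, 5 lay above and 8 below 0 (median -0.04), which became 3 and 10 without knockout heart 3 and 7 and 6 without knockout heart 1 or control heart 1. Tead1, a factor of the Hippo pathway, was at 69.6 ± 6.05 and 86.2 ± 6.82 CPM (0.31), with all knockout hearts above all controls. Elk1, an SRF partner, was at 6.24 ± 2.29 and 8.95 ± 1.59 CPM (0.51, 0.87 without control heart 3 and 0.35 without knockout heart 3).

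Promoter sequences from RefSeq were found for 7 of the 10 members, not for Myh11, Tagln and Pdgfrb. The 250 bases before the gene start were searched on both strands for the CArG box of SRF and for CATTCC, the core of the element bound by TEAD factors. They were also searched for GTGGGAA, the core bound by the Notch partner RBPJ. Only the first entry of each gene was used, so other starts were not searched. The 4 members that held a match are shown, on build GRCm38.p6, 5′ to 3′ along the gene with the matches in capitals. Acta2 lies at chr19:34255374-34255623 on the minus strand, Smtn at chr11:3539293-3539542 on the minus strand, Mylk at chr16:34784700-34784949 on the plus strand and Myl9 at chr2:156775214-156775463 on the plus strand.
Acta2: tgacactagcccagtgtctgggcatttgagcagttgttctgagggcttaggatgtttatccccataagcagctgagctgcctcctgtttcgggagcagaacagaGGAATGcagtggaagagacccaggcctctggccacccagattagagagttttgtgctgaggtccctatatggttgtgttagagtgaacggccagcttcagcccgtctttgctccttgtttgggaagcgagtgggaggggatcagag
Smtn: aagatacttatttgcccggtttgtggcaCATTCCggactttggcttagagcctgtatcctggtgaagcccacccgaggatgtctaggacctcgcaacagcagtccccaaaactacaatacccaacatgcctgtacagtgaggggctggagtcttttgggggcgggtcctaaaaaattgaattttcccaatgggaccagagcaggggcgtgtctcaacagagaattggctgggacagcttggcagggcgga
Mylk: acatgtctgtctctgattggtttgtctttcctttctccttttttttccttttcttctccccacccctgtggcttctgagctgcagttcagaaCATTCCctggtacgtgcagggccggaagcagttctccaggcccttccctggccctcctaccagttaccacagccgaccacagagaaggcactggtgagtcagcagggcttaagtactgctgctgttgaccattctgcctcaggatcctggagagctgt
Myl9: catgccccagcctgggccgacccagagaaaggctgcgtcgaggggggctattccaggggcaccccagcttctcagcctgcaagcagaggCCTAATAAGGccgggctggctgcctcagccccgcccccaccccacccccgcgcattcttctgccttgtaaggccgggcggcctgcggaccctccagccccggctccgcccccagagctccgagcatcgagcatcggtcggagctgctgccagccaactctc

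The CArG box, searched as CCWWWWWWGG with W for A or T, was found in Myl9 alone. It began 161 bases before the start, and 1.40% of 27025 promoters held one. Stretches with a single mismatch were not counted, such as ccctatatgg and ccttgtttgg in Acta2. CATTCC was found in Smtn and Mylk and, as its reverse complement GGAATG, in Acta2, beginning 222, 158 and 146 bases before the start, where 12.6% of promoters held it. GTGGGAA was in none of the 7 and in 5.41% of all promoters. For Notch3 the bases after the start were not found in its annotated transcripts, so its window is uncertain. These are matches of letters in a window and no measure of binding. The 4 genes differed in how they varied, since Acta2, Mylk and Myl9 were lowest in knockout heart 3 and within or above the control range in knockout heart 1, whereas Smtn was low in both.

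Genes that set the phosphorylation of the myosin light chain showed 9 of 17 tested members of the list above 0 and 8 below (median 0.08), and none was called; without knockout heart 2 it was 7 and 10 (median -0.13). Ppp1cb, the catalytic subunit of the myosin phosphatase, was at 189, 147 and 204 CPM in the controls against 240.2, 231 and 443 CPM in knockouts 1, 2 and 3. All knockout hearts were above all controls, by a log2 fold change of 0.76 (SE 0.29; edgeR adjusted p = 0.694) that was 0.39 without knockout heart 3. Calm2, a calmodulin gene, was at 64.9 ± 11.8 and 96.9 ± 34.3 CPM (0.58, and 0.25 without knockout heart 3). Mylk4, a relative of Mylk, was at 53.5 ± 18.2 and 39.1 ± 1.66 CPM (-0.45, and -0.15 without control heart 1).

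In the Notch pathway 10 of 20 genes lay above and 10 below 0 (median 0.02, no call), and 7 above and 13 below without knockout heart 1. Hey1, a direct target of Notch receptors, was at 6.59 ± 0.397 CPM in the controls against 5.26 ± 0.616 CPM in the knockouts (a log2 difference of -0.32), with all knockout hearts below all controls. The ligand Jag2 was at 9.28 ± 3.73 and 5.96 ± 1.84 CPM (-0.64, -0.28 without control heart 2 and -0.39 without knockout heart 3). The endothelial receptor Notch4 was at 11.4 ± 3.87 and 7.65 ± 3.03 CPM (-0.57, -0.27 without knockout heart 3 and -0.29 without control heart 2).

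The 6 PDGF genes besides Pdgfrb were split evenly, 3 above and 3 below 0, and 2 and 4 without knockout heart 3. The ligand Pdgfc was at 0.721 ± 0.388 CPM in the controls against 1.75 ± 0.941 CPM in the knockouts (a log2 difference of 1.24, and 0.80 without knockout heart 3). Pdgfra, the receptor of fibroblasts, was at 14.2 ± 3.12 and 18.2 ± 5.21 CPM (0.35, 0.20 without control heart 2 or knockout heart 1, and 0.55 without knockout heart 2), and the ligand Pdgfd at 11.1 ± 2.94 and 9.28 ± 2.11 CPM (-0.26, and between -0.46 without knockout heart 1 and -0.04 without control heart 2). In the RGS family, 5 of 10 tested genes lay on each side of 0. Rgs6 was at 8.12 ± 0.817 and 5.49 ± 1.28 CPM (-0.56), with all knockout hearts below all controls, and Rgs18 at 0.814 ± 0.408 and 1.51 ± 0.706 CPM (0.91, 0.47 without knockout heart 1 and 0.55 without control heart 3). None of either list was called.

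Receptors and enzymes of vascular tone lay above 0 in 9 of 14 tested genes (median 0.06, no call), and in 6 of 14 without knockout heart 3 (median -0.08). Ptgir, the prostacyclin receptor that relaxes smooth muscle, was at 3.15, 1.48 and 2.39 CPM in the controls against 4.21, 4.02 and 4.39 CPM in knockouts 1, 2 and 3 (a log2 difference of 0.84, SE 0.30; edgeR unadjusted p = 0.0206). Adra1a, an adrenergic receptor, was at 11.6, 14.04 and 11.2 CPM in the controls against 10.3, 7.36 and 3.39 CPM in the knockouts (-0.82, SE 0.35, and -0.48 without knockout heart 3). In both genes the groups did not overlap. Adora2a, an adenosine receptor, was at 1.77 ± 0.470 and 0.972 ± 0.487 CPM (-0.84, -1.27 without knockout heart 1 and -0.58 without knockout heart 2).

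Genes of the elastic vessel wall lay mostly above 0. Of 11 tested genes, 9 were above and 2 below (median 0.32, and 0.17 without knockout heart 1), and none was called. Of all tested genes 48.9% lay below 0. Mfap5 (0.32) stands both in this list and among the fibroblast markers, and its value is the median of both. Fbln5, which helps to assemble elastic fibres, was at 7.52, 5.64 and 8.42 CPM in the controls against 10.8, 8.65 and 15.4 CPM in knockouts 1, 2 and 3, with no overlap (a log2 difference of 0.69, SE 0.26; edgeR unadjusted p = 0.0284; 0.43 without knockout heart 3). Loxl1, which crosslinks elastin, was at 24.5 ± 4.02 and 34.2 ± 4.90 CPM (0.48, also without overlap). Fbln1 was at 32.7 ± 7.16 and 45.9 ± 12.4 CPM (0.49, 0.29 without knockout heart 3 and 0.31 without control heart 2). Fbln5 and Fbln1 were highest in knockout heart 3, and Loxl1 in knockout heart 1. Fibroblasts make these proteins as well; their markers are given above, and their part in these differences was not tested.

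Paralogues show where the members can be mistaken for relatives with similar sequence. Cardiac actin Actc1 was at 1964, 1376 and 3060 CPM in the controls against 1399, 2725 and 3844 CPM in knockouts 1, 2 and 3. Its highest heart, knockout heart 3, was the lowest for Acta2, and knockout heart 1, the highest for Acta2, was among its lowest. Skeletal actin Acta1 was at 138, 267 and 420 CPM in the controls against 40.2, 147 and 23.4 CPM in the knockouts. Its log2 difference was -1.97 (SE 0.67, edgeR adjusted p = 0.694). With 1 heart left out it ranged from -3.13 without knockout heart 2 to -1.53 without control heart 3, and was -1.55 without knockout heart 3. The deposited counts held fractions of a read in 4 members, Acta2, Smtn, Rgs5 and Pdgfrb, which whole reads alone do not give. How reads that match several genes were divided is not stated, so Acta2, with its near-identical relatives, is uncertain to that extent.

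Of the 15 tested paralogues, 8 lay above and 7 below 0, and none was called, while edgeR without a filter on low counts called Acta1. Among light chains, Myl12a, a near relative of Myl9, was at 238 ± 65.5 and 410 ± 194 CPM (a log2 difference of 0.78, and 0.34 without knockout heart 3), Myl12b at 28.7 and 31.8 CPM, and the essential light chain Myl6 at 141 and 139 CPM. The nonmuscle myosins Myh9, Myh10 and Myh14 were at 63.5 and 54.8, 14.2 and 11.4, and 36.9 and 32.4 CPM in the controls against knockout hearts. The calponin Cnn2 was at 15.4 and 17.1 CPM, its relative Cnn3 at 32.1 and 32.7 CPM, and the smoothelin-like gene Smtnl2 at 5.51 and 5.80 CPM. Tagln2 was at 79.0 and 89.3 CPM, and Tagln3 at 1.40 ± 0.212 and 0.463 ± 0.365 CPM with no overlap (-1.58, -2.41 without knockout heart 1 and -1.28 without knockout heart 3). Of the cytoplasmic actins, Actb was at 503 and 499.95 CPM and Actg1 at 75.4 and 93.8 CPM.

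Members that share exons with a gene on the other strand are uncertain, because the library protocol as described marks no strand. In GENCODE M21 this concerned Tagln, Smtn, Mylk and Notch3. For Notch3 the antisense gene Gm17276 was at 9.54, 8.50 and 5.44 CPM in the controls against 3.13, 5.16 and 1.223 CPM in knockouts 1, 2 and 3, all knockout hearts below all controls (a log2 difference of -1.32, SE 0.46; edgeR adjusted p = 0.694), on 21.5 to 118 deposited counts. The difference for Gm17276 was -1.87 without knockout heart 2 and -0.92 without knockout heart 3. Notch3 itself had 97 to 162 counts, so a part of either value could belong to the other. For Mylk the antisense gene E130310I04Rik had 10 to 45 counts against 269 to 555, the 45 and the 269 both in knockout heart 3. In CPM all knockout hearts of E130310I04Rik lay above all controls (a log2 difference of 0.83, and 0.46 without knockout heart 3). For Tagln the overlapping Pcsk7 had 110 to 170 counts and Gm48529 2 to 18. For Smtn the overlapping genes had at most 2 counts against 1090 to 2222.5.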

How the data were processed

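RNA of 6 hearts was sequenced as 6 libraries, with cDNA primed by anchored oligo(dT) and tagmented, per the labels' protocols. Per the submitters' processing notes build mm39 was used with edgeR 4.0.16, featureCounts, Subread 2.1.1, STAR 2.7.11 and SAMtools 1.22.1, whose roles are not stated. The sources used here do not give the annotation release, the strand setting or the handling of multi-mapping reads. The authors' deposited table holds estimated counts, some with a fraction of a read, and deposited CPM, which are each count scaled to the total of its column. The 92 spike-in entries held 0 counts.

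Counts were rounded and fitted over all genes with edgeR 4.0.16 (R 4.3.3): TMM factors, quasi-likelihood test of 3 knockout against 3 control hearts, Benjamini-Hochberg adjustment, two-sided, threshold 0.05. A gene was tested where 3 or more libraries reached 1 CPM. Printed CPM are TMM-normalised unless called deposited. SEs came from the F statistic and 95% intervals from its t distribution. The procedure was tested on simulated data with large changes in genes with many counts. That test covered neither small changes nor a heart that stood apart like knockout heart 3. Heart profiles used log2 CPM with a prior count of 2. Alternatives were DESeq2 1.42.0, limma-trend 3.58.1 on log2(CPM + 0.5) or log2(CPM + 0.1), other scalings and filters, unrounded counts, a replicate block and each heart left out. Every pair of libraries differed by more than sampling noise. The controls are called littermates, but no label ties a heart to a litter, so the hearts were treated as unpaired. The edgeR p-values set the group difference against the spread within the groups of these 6 samples, estimated partly from all genes.

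Named were all 10 members, the 3 genes of each list with the smallest p, every tested paralogue, and the 6 nearest genes by profile. 1 of the genes this rule names is not reported here. Overlapping genes, Ybx1, Actg2 and the marker genes of other cells that are named singly were added after their values were seen. The members and lists were chosen with earlier results of these data known. Levels were not compared between genes, since no gene length of the files' annotation was used.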

Additional observations from a re-analysis of the deposited data

How the results depend on the processing

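No member was called in any of the 16 alternatives, with Cnn1 untested under a filter of 5 CPM, and the lowest adjusted p was 0.262 for Smtn under the replicate block. Over all genes, edgeR called 0 genes, DESeq2 15 and edgeR without a filter on low counts 133, among them Acta1, which no other alternative called. Leaving out 1 heart gave 0 to 3 calls, the 3 without knockout heart 3. The heart number as a replicate block gave 5 calls, and the genes at an unadjusted p below 0.05 went from 705 to 1807. No label says whether equal numbers tie hearts together. Deviations of same-numbered hearts correlated at -0.11, 0.45 and 0.56, and those of differently numbered hearts at -0.68 to 0.56. Deviations from the mean of so few hearts cannot settle whether the hearts are paired.

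Library size alone moved the median of all genes to 0.17 and limma-trend to 0.14 or 0.15, and directions near 0 moved with it. Acta2 went to 0.057 with library size alone and to 0.0341 and 0.0343 in limma-trend with a pseudocount of 0.5 and 0.1, Rgs5 to 0.0165 with library size alone, and Pdgfrb to -0.0148 with a filter of 5 CPM. Among paralogues Actb went to 0.14 with library size alone, 0.12 in both limma-trend fits and 0.0109 without a filter, Myl6 to 0.14 and 0.13 in the same scalings, and Cnn3 to -0.0112 with 5 CPM. With 1 heart left out, ranges that crossed 0 were -0.41 to 0.12 for Acta2, -0.41 to 0.00686 for Tagln, -0.0632 to 0.0871 for Pdgfrb, -0.16 to 0.20 for Actb, -0.0495 to 0.67 for Actc1, -0.0917 to 0.0898 for Cnn3, -0.46 to 0.00247 for Myh9, -0.0752 to 0.00461 for Myl6 and -0.31 to 0.30 for Smtnl2. The cause was not tested. The members' median lay between -0.49 and -0.10 over all alternatives. Without knockout heart 1 the groups did not overlap in 6 members instead of 2. With fewer hearts groups separate more easily, and the share over all tested genes was not computed for that fit. Genes at an edgeR unadjusted p below 0.05 went from 705 to 1745 in it. Depth limits Cnn1 most, with 21 to 32 counts.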
